A study of Mus musculus with 6 samples.

Results

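The cytosolic ribosomal protein genes were followed in Ly6G+ bone marrow neutrophils of naive mice and of mice bearing lung tumors for 1 or 3 weeks. They were chosen by their symbols, as protein-coding mouse genes named Rpl or Rps with a number, Rplp0 to Rplp2 or Rpsa, leaving out pseudogenes. Of 38887 gene identifiers in the count table, 83 were such genes. They comprised 52 genes of the large (60S) subunit and 31 of the small (40S) subunit. Of these, 80 (50 of 60S and 30 of 40S) had enough counts to be tested among 12259 genes.

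The naive group was tumor-free. The week 1 and week 3 groups had received LL2 cells, a mouse Lewis lung carcinoma line, intravenously as an orthotopic model of lung cancer in C57BL/6 mice. Mice were bought at 6 to 8 weeks of age, and the age of each sampled mouse was not given. Neutrophils were selected on Ly6G beads to over 95% purity, and each group had 2 libraries, numbered as replicate mice.

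A ribosome is made of ribosomal RNA and about one copy of each ribosomal protein, so that the proteins are needed in equal numbers. Their mRNAs begin with a tract of pyrimidines, the TOP motif, through which mTORC1 signalling and the binding protein Larp1 control their translation together. Maturing neutrophils stop dividing and lose many of their ribosomes. Ribosomal protein genes have also left many processed pseudogenes in the mouse genome, nearly identical copies whose short reads cannot always be assigned to one locus.

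The counts were reads per gene estimated by RSEM, and libraries held between 11994158 and 14127919 of them. Levels are in CPM, counts scaled to a common library size by TMM. A library's limit of detection, 3 counts, was worth 0.212 to 0.25 CPM of its total. Intervals and this limit cover counting error only. All 12 neutrophil markers, among them S100a8, S100a9, Camp and Ly6g, were detected, and together reached between 284801 and 348717 CPM in the 6 libraries. S100a8 alone gave 147147 to 228495 CPM of this, and Ly6g 0.49 to 2.13 CPM. At week 3 against naive mice, 2 of the 12 were called higher on the log2 scale (Cxcr2 0.70 and Retnlg 0.44). Another 3 were called lower (Camp -1.04, Ltf -0.64 and Ngp -0.51), beside 12% of all genes higher and 9.42% lower. B-lineage markers fell at week 3 in 9 of 9 genes, from a summed 46.7 to 54.1 CPM in naive mice and 46.0 to 58.2 CPM at week 1 to 11.7 to 13.6 CPM, and Rag1 was then at 0 counts in both libraries. Early precursor markers were summed at 239 to 276, 191 to 259 and 342 to 449 CPM in the same order of groups. Of their 7 genes, 5 rose at week 3 (Prtn3, Mpo, Ctsg, Elane and Ms4a3) and 2 fell (Mki67 and Top2a). Basophil and eosinophil markers lay at 32.6 to 35.1, 74.9 to 82.8 and 15.0 to 21 CPM, erythroid markers at 1191 to 1328, 1294 to 1500 and 568 to 1335 CPM, monocyte markers at 645 to 803, 813 to 868 and 729 to 783 CPM, and T and NK markers at 3.24 to 3.43, 3.13 to 10.6 and 6.51 to 8.14 CPM. No marker was at 0 in all libraries. The part of these cells in the levels given below was not tested, and in RNA from bulk samples fewer cells of a type and less RNA per cell cannot be told apart.

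Much of what could be read from a single ribosomal protein gene depended on its copies. A gene was called a near-copy of a member when it shared at least 20% of the member's stretches of 50 bases and gave up at least 50% of its own. There were 138 such genes for 56 members, and 105 of them held counts. The median member had 13.5% of its coding 50-base stretches found in no other gene, 26 members had none, and 7 members were unique throughout. For 18 members the near-copy with most counts had an identical coding sequence. The pairs below belong to Rps27, the member with the lowest fold change at week 1, and Rps27a, the member called lower then, and are shown as the first 90 coding bases (GENCODE M21, GRCm38), with bases that differ in capitals.

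Rps27: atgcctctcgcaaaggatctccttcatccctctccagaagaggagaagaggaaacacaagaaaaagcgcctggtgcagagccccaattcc
Rps27rt: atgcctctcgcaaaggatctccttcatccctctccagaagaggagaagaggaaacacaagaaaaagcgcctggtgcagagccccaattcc
Rps27a: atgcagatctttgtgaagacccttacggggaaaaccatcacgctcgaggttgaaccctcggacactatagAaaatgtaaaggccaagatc
Gm8430: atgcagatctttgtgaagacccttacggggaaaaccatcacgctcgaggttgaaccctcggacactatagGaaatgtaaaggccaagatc

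Rps27 (chr3:90212522-90213651) and the retrogene Rps27rt (chr9:114982366-114982739) were identical over all 252 coding bases. Rps27a, a fusion of ubiquitin with a 40S protein (chr11:29545846-29548109), and the processed pseudogene Gm8430 (chr6:122456904-122457374) were identical at 467 of 468 bases. Each result is therefore given for the counts as deposited and, where it differs, with the counts of near-copies summed into their member. The sum does not show which locus was transcribed.

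Ribosomal protein transcripts held a larger share of the counts in neutrophil libraries of tumor-bearing mice. They took 1.79% ± 0.0442 of all counts in naive mice, 2.20% ± 0.0205 at week 1 and 2.24% ± 0.0951 at week 3 (SD, n = 2 each). In single libraries the share was 1.76% (95% Wilson interval 1.75 to 1.76) and 1.82% (1.81 to 1.83) in naive mice, 2.19% (2.18 to 2.19) and 2.22% (2.21 to 2.22) at week 1, and 2.18% (2.17 to 2.18) and 2.31% (2.30 to 2.32) at week 3. Both naive libraries lay below all 4 libraries of tumor-bearing mice, and the shares of the 2 weeks overlapped. With near-copies added, the shares were 2.38%, 2.96% and 2.99%.

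At week 1, 21 of 80 members rose against naive mice and 1 fell. This is 26.2% of the members called higher, beside 4.23% of all tested genes, while 3.76% of all genes fell. The median member was higher by 0.27 on the log2 scale (1.21-fold, range -1.89 to 0.97), where the median of all genes was 0.01. Of the members, 54 (67.5%) had both week 1 libraries above both naive libraries, against 27.2% of all genes. With near-copies summed, 25 of 81 members rose and none fell (none also at an unadjusted p under 0.05), and 4.17% of all genes rose. The median was then 0.31 and the range narrowed to between -0.04 and 0.73.

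Little of this early rise was left when transcript length and base composition were entered into the fit. Members had a median transcript of 795 bases, against 2739 for all tested genes. When length and GC content were entered as offsets, 6 members rose and 5 fell at week 1, with a median of 0.03 against -0.06 for all genes. The median was then 0.05 for 60S members and -0.09 for 40S members. Without naive replicate 1 only 4 members rose, without week 1 replicate 1 there were 8 and without week 1 replicate 2 there were 6.

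At week 3, 47 of 80 members (58.8%) rose against naive mice and none fell, beside 12% of all tested genes higher and 9.42% lower. None fell at an unadjusted p under 0.05 either, and by DESeq2 45 rose and none fell. The median member was higher by 0.46 (1.37-fold, range -0.66 to 1.42) and the median gene by 0.03. Both week 3 libraries lay above both naive libraries for 71 members (88.8%), against 32.1% of all genes. With near-copies summed, 59 of 81 rose (12.2% of all genes), and all 81 values were above 0, between 0.10 and 1.42. With the offsets for length and GC content 35 rose and none fell, and the median was 0.31 against 0.02. Without naive replicate 1, 27 members rose.

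Of the 80 members, 20 rose at both weeks, 27 at week 3 only and 1 at week 1 only. The exception was Rpl37, which gave 0.54 ± 0.14 at week 1 and 0.29 ± 0.14 at week 3 (log2 fold change ± SE). The weeks share their naive libraries, and a call in one week alone is no test of their difference. Compared directly, 16 members (20%) were higher at week 3 than at week 1 and none was lower (1 at an unadjusted p under 0.05, and 1 by DESeq2), beside 13% of all genes higher and 9.56% lower. Both week 3 libraries lay above both week 1 libraries for 47 members (58.8%), against 31.5% of all genes. With near-copies summed, 19 rose, beside 13.2% of all genes. Scaled to library totals instead of TMM, 5 members were higher and 4 lower at week 3 than at week 1, with a median of -0.02 against -0.22 for all genes. With the offsets for length and GC content 33 were higher and none lower.

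**Figure D1:**
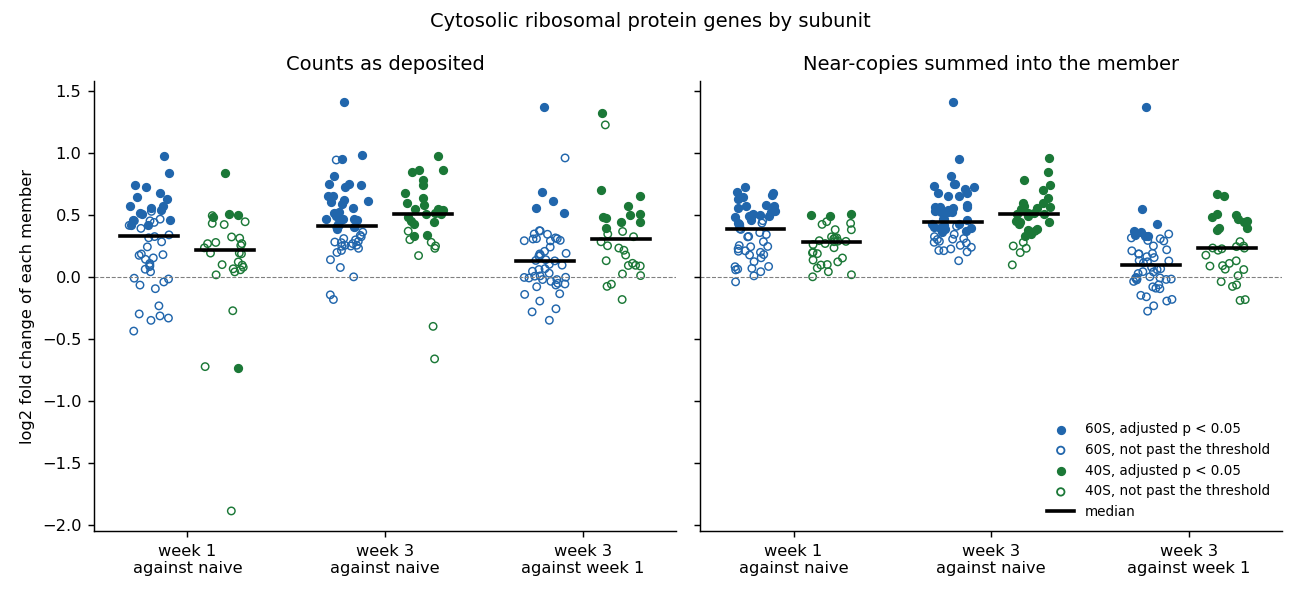
Log2 fold change (vertical axis) of each ribosomal protein gene in the 3 comparisons, with 60S members in blue and 40S members in green, filled where the adjusted p was under 0.05, and bars at the medians. On the left counts are as deposited, and on the right near-copies were summed, where all 81 values of week 3 against naive lie above 0.

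The 2 subunits are given side by side, and the difference between them was not tested. Among 60S members 17 of 50 rose at week 1 (34.0%), 25 rose at week 3 (50%) and 5 were higher at week 3 than at week 1 (10%). Among 40S members 4 of 30 rose and 1 fell at week 1 (13.3% higher), 22 rose at week 3 (73.3%) and 11 were higher at week 3 than at week 1 (36.7%). The median 60S member was 0.33 higher at week 1 and 0.41 at week 3, and the median 40S member 0.21 and 0.51. From week 1 to week 3 the medians were 0.13 for 60S and 0.30 for 40S. With near-copies summed they were 0.10 and 0.23, and 8 of 50 against 11 of 31 members rose. Under the offsets for length and GC content, 16 of 50 and 17 of 30 rose between the weeks, while at week 1 5 rose and 3 fell among 60S members and 1 rose and 2 fell among 40S members. Scaled to library totals, 2 rose and 3 fell among 60S members and 3 rose and 1 fell among 40S members between the weeks.

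The ratio of 40S to 60S counts within a library does not depend on how libraries were scaled. It was 1.12 and 1.1 in naive libraries, 1.03 and 1.05 at week 1, and 1.22 and 1.22 at week 3. The 3 groups did not overlap, with week 1 lowest and week 3 highest. The order was the same with near-copies summed, at 1.23 and 1.23, 1.11 and 1.13, and 1.28 and 1.31. Without Rps9, the 40S member with the highest CPM at week 3, the ratios were 0.943 and 0.910, 0.846 and 0.887, and 0.962 and 0.974. With 2 libraries a group an exact permutation test cannot give a two-sided p below 0.333, so that none is given for these ratios.

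**Figure D2:**
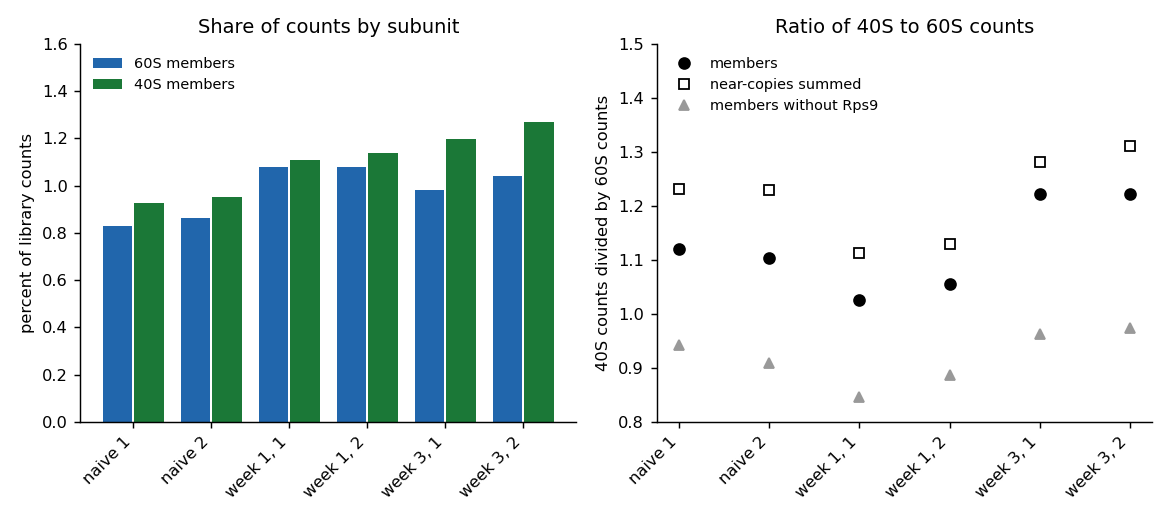
Left, percent of all library counts on 60S (blue) and 40S (green) members in each of the 6 libraries. Right, 40S counts divided by 60S counts on an axis that starts at 0.8, for members, with near-copies summed, and without Rps9, where week 1 libraries are lowest and week 3 libraries highest in each series.

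The median member differed between the groups in each library. Relative to each member's naive mean, the median log2 level was -0.04 and 0.04 in naive libraries, 0.25 and 0.29 at week 1 and 0.44 and 0.49 at week 3. The median of all tested genes stayed between -0.003 and 0.04 in the same libraries. Around that shift members differed from one another by an SD of 0.41 at week 1 and 0.31 at week 3 (log2 fold change against naive, over 80 members). With near-copies summed, the SDs were 0.19 and 0.21 over 81 members. In the 50 members that held at least 95% of the counts summed over themselves and their near-copies, 15 rose at week 1, 35 at week 3 and none fell. In the other 30, 6 rose and 1 fell at week 1 and 12 rose at week 3.

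**Figure D3:**
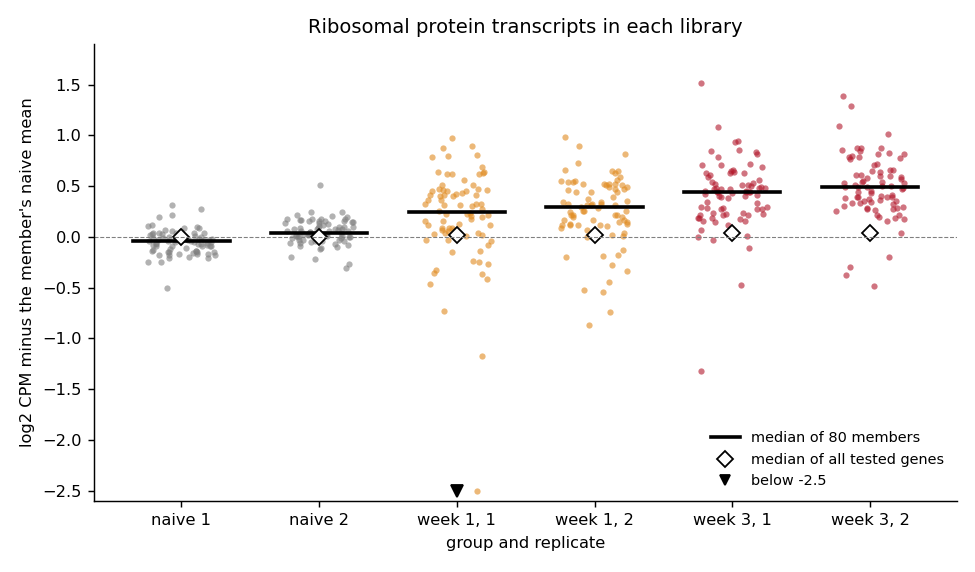
Log2 CPM of each of the 80 tested members minus its mean in naive libraries (vertical axis), by library, with bars at the median member and diamonds at the median of all tested genes. The bars rise from near 0 in naive libraries to 0.44 and 0.49 at week 3 while the diamonds stay near 0, and Rps27, at 0 counts in 1 week 1 library, is drawn as a triangle at the lower edge.

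For several members the change differed between the counts as deposited and the sum with near-copies. Rps27 gave 124 and 140 CPM in naive mice, 0 and 71.8 at week 1, and 52.4 and 114 at week 3. Rps27rt held 3606 and 4283 counts in naive mice, 8388 and 6247 at week 1, and 4865 and 5443 at week 3. Rps27rt was called higher at week 1. The library with no count on Rps27 was the one with most counts on Rps27rt, and the fold change of Rps27 at week 1 (-1.89 ± 0.94, adjusted p = 0.248 by edgeR) became 0.29 ± 0.13 for the sum.

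Rps27a was the 1 member called lower at week 1. It gave 92.0 and 94.8 CPM in naive mice, 56.2 and 55.7 at week 1, and 132 and 147 at week 3, with no overlap between groups. The fold change was -0.74 ± 0.12 at week 1 (adjusted p = 0.0028), 0.58 ± 0.11 at week 3 (adjusted p = 0.00289) and 1.32 ± 0.12 from week 1 to week 3 (adjusted p = 6.86e-06). The member held 5.8% of the counts it shared with its near-copies. Most of the rest lay on Gm8430, which gave 0.04 at week 1 (adjusted p = 0.887) and rose by 0.36 at week 3. For the sum, the changes were 0.00 ± 0.11, 0.38 ± 0.11 and 0.38 ± 0.11, and no fall was called.

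Rps12 had 0 counts in every library, while its 3 near-copies held between 10237 and 17942 counts a library. Rps12l1, which is annotated as a processed pseudogene on chromosome 7, has the same 396 coding bases. Summed, the Rps12 sequence rose at week 3 by 0.60 ± 0.12 (adjusted p = 0.00236) and was not called at week 1 (0.20 ± 0.12). Rpl10a, one of the 3 tested members with the lowest level per coding length, had between 18 and 74 counts a library beside 1501 to 2738 on its pseudogene. Its sum rose by 0.73 ± 0.12 at week 3.

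Rpl6 had the smallest adjusted p of all members at week 1. It gave 56.5 and 50 CPM in naive mice, 104 and 105 at week 1, and 113 and 97.8 at week 3. The changes were 0.97 ± 0.12 and 0.98 ± 0.13 (adjusted p = 0.000875 and 0.000136), and became 0.23 ± 0.11 (adjusted p = 0.226) and 0.57 ± 0.11 (adjusted p = 0.00191) with its near-copies. Its pseudogene Gm6136 gave -0.14 at week 1 (adjusted p = 0.534) and rose by 0.40 at week 3. Rps29, a small zinc-binding 40S protein, showed the same pattern. It gave 347 and 430 CPM in naive mice, 709 and 679 at week 1 and 741 and 670 at week 3, a rise of 0.84 ± 0.13 and 0.86 ± 0.13. Summed with the identical Gm14303, the rise was 0.57 ± 0.12 at week 3 and was not called at week 1 (0.32 ± 0.12, adjusted p = 0.111). Rps6, the substrate of S6 kinase, held 11.7% of its summed counts. It gave -0.72 ± 0.24 at week 1, not past the threshold, and its sum rose by 0.52 ± 0.11 at week 3.

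**Figure D4:**
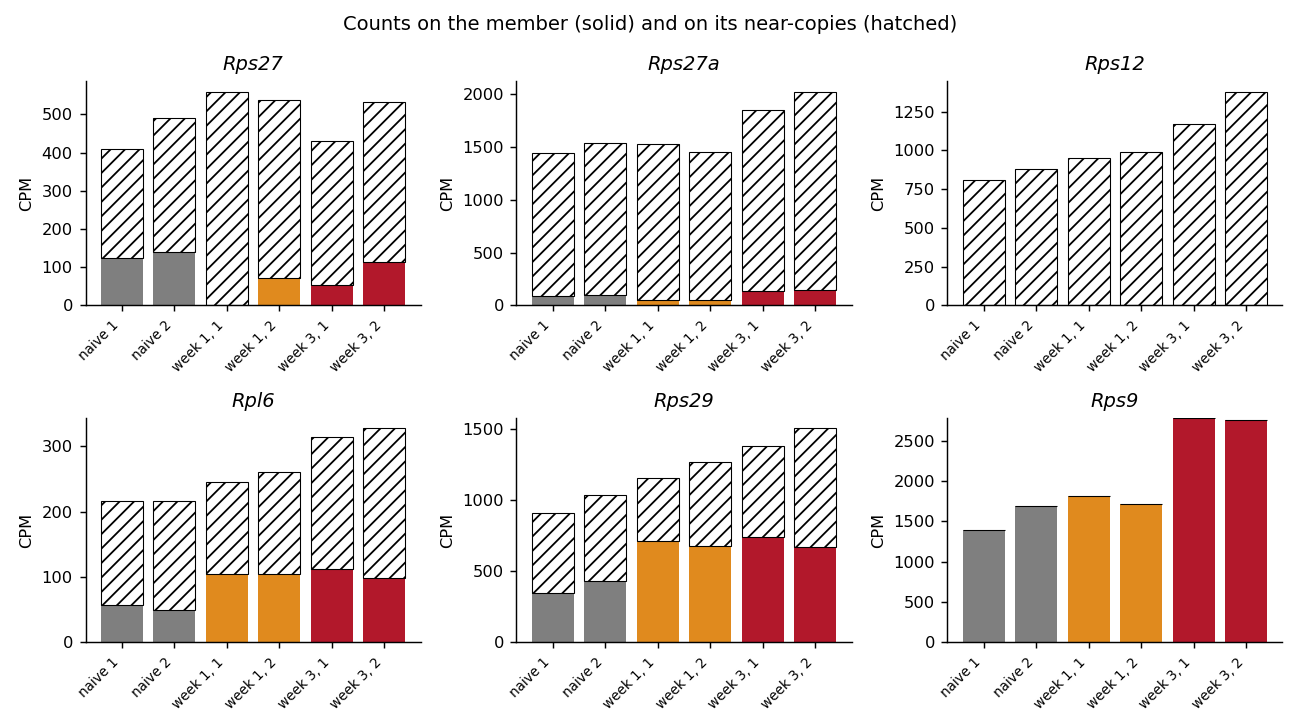
CPM on 6 members (solid, grey for naive, orange for week 1, red for week 3) and on their near-copies (hatched) in each library, on axes that start at 0. Most of the Rps27, Rps27a and Rps12 counts lie on near-copies, Rpl6 and Rps29 are divided, and Rps9 has none.

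To find transcripts out of step with the rest, libraries were rescaled so that the median member did not change, and all genes were tested again. At week 1, 14 members were out of step, 7 above and 7 below (17.5%), beside 18.4% of all genes. At week 3, 11 were (8 above and 3 below, 13.8%), beside 36.6% of all genes, and between the 2 weeks 8 were (5 above and 3 below, 10%), beside 22.0%. These shares are at or below those of all genes. The rescaling itself shifts genes outside the members by the members' own rise, so this comparison cannot show whether the members moved together. With near-copies summed 5, 8 and 9 members were out of step. In all 22 members were called at least once, and 16 of the 33 calls, on 12 members, remained in the same comparison with near-copies summed. Of these 12, Rpl13a, Rpl39, Rpl3l, Rplp0, Rps15, Rps24 and Rps9 had no near-copy. Summing added no counts to them, so that it was no check of their calls. Leaving out each of the 6 libraries in turn, the calls on Rpl3l, on Rpsa at week 3 and on Rpl35a between the weeks remained every time. Those on Rps9 were lost once in each comparison, without naive replicate 1 at week 3 and without week 1 replicate 2 between the weeks, and that on Rpsa between the weeks was lost without week 1 replicate 1. Calls on Rpl12, Rpl23a, Rpl27, Rpl38, Rpl6, Rps27a, Rps29, Rps6 and Rps7 did not remain in any comparison with near-copies summed. The call on Rpl28 between the weeks was lost while another appeared at week 1. Rpl10a, Rpl31, Rpl37a and Rps27 were called out of step only with near-copies summed.

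Of the 12, Rpl3l stood farthest from the rest. It encodes a paralog of Rpl3 known from heart and skeletal muscle (chr17:24727820-24736143), and all of its coding stretches were unique. It gave 5.1 and 6.5 CPM in naive mice, 5.3 and 6.8 at week 1 and 16.8 and 14.4 at week 3, so that the week 3 libraries lay above all others. The change was 1.42 ± 0.21 at week 3 (adjusted p = 0.000446) and 0.04 ± 0.23 at week 1, and from week 1 to week 3 it was 1.37 ± 0.21 (adjusted p = 0.000456). Relative to the other members it was 0.98 ± 0.22 at week 3 (adjusted p = 0.00391). Its level remained low, at 12.8 ± 1.42 CPM per kb of coding sequence at week 3 (SD, n = 2), against 76.4 ± 5.66 for Rpl3.

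Rpsa, the 40S protein also known as the laminin receptor precursor (chr9:120127689-120132369), had the smallest adjusted p at week 3. It gave 160 and 179 CPM in naive mice, 195 and 214 at week 1 and 323 and 343 at week 3. The rise was 0.97 ± 0.12 at week 3 (adjusted p = 8.4e-05) and 0.70 ± 0.12 from week 1 to week 3 (adjusted p = 0.000762), and it exceeded the other members by 0.53 ± 0.11 at week 3 (adjusted p = 0.00328). Both weeks lay above naive libraries without overlap, although week 1 was not called (0.27 ± 0.12). Only 1.2% of the coding stretches of Rpsa were unique, but 97.7% of the summed counts were assigned to it.

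Rps9, a 40S protein with a role in decoding accuracy, was unique throughout (chr7:3703993-3706897). It gave 1391 and 1693 CPM in naive mice, 1808 and 1719 at week 1 and 2785 and 2759 at week 3. The rise was 0.85 ± 0.12 at week 3 (adjusted p = 0.000285), and from week 1 to week 3 it was 0.65 ± 0.12 (adjusted p = 0.00162). It exceeded the other members by 0.40 ± 0.11 (adjusted p = 0.00964). Rps24, a 40S protein mutated in Diamond-Blackfan anemia, gave 346 and 358, 426 and 448, and 566 and 647 CPM in the same order, with no overlap. It rose by 0.79 ± 0.11 at week 3 (adjusted p = 0.00034) and exceeded the others by 0.34 ± 0.11 (adjusted p = 0.0338), a call lost without any 1 of the 6 libraries (0.26 to 0.39).

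Among 60S members above the rest at week 3, Rpl39 lines the exit tunnel of the ribosome. The processed pseudogene Rpl39-ps shared 51% of its own stretches but 9.2% of those of Rpl39, under the 20% set for a near-copy. It held 9048 counts in all libraries together, beside 7610 on Rpl39. The sum with near-copies left the counts on Rpl39-ps out and was no check of the Rpl39 call. Rpl39 gave 67.2 and 62.5 CPM in naive mice, 100 and 92.8 at week 1 and 112 and 138 at week 3, and rose by 0.58 ± 0.13 and 0.95 ± 0.13. The rise at week 1 was no longer called without any 1 of the naive or week 1 libraries. Rplp0, the base of the stalk that recruits elongation factors, gave 156 and 184, 264 and 282, and 299 and 300 CPM, and its rise at week 1 was no longer called without naive replicate 1 or week 1 replicate 2. It was above the rest at both weeks, by 0.42 ± 0.11 (adjusted p = 0.0228) and 0.37 ± 0.11 (adjusted p = 0.0225). Rpl39 lost the call out of step without naive or week 3 replicate 2 (lowest value of the 6 fits 0.35), and Rplp0 lost both without naive replicate 1 or either library of the week concerned (range of the 6 fits 0.39 to 0.46 at week 1 and 0.33 to 0.39 at week 3). Its partners Rplp1 and Rplp2 rose at week 3 and were in step.

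Other members were out of step at week 1 or between the weeks. Rpl13a, a 60S protein that also silences inflammatory mRNAs in myeloid cells, gave 201 and 213 CPM in naive mice, 362 and 324 at week 1 and 324 and 326 at week 3. It rose by 0.73 ± 0.11 and 0.65 ± 0.11 and was called above the rest at week 1, by 0.47 ± 0.12 (adjusted p = 0.0171), with no out-of-step call between the weeks. Rpl26 did likewise, by 0.38 ± 0.12 (adjusted p = 0.0426). The call on Rpl13a was lost without any 1 of the naive or week 1 libraries (range of the 6 fits 0.37 to 0.58), and that on Rpl26 without any 1 of the 6 libraries (0.34 to 0.42). Rpl35a gave 136 and 164, 259 and 280, and 204 and 218 CPM. It fell relative to the other members from week 1 to week 3 by 0.54 ± 0.12 on the log2 scale (adjusted p = 0.00555), as did Rpl37 and Rps15 (-0.44 ± 0.12 and -0.37 ± 0.12), where both lost the call without any 1 of the week 1 or week 3 libraries. Without the rescaling none of these 3 was called between the weeks.

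Rpl27a was the member that lagged. It gave 562 and 501 CPM in naive mice, 416 and 439 at week 1 and 518 and 545 at week 3, where naive and week 3 libraries overlapped. Relative to the others it was at -0.58 ± 0.12 at week 1 and -0.45 ± 0.12 at week 3 (adjusted p = 0.00806 and 0.012). With near-copies summed, it was called at week 3 alone (-0.34 ± 0.11, adjusted p = 0.0267). The week 3 call was lost without naive replicate 1 or either week 3 library, at -0.29 for the value nearest to 0.

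**Figure D5:**
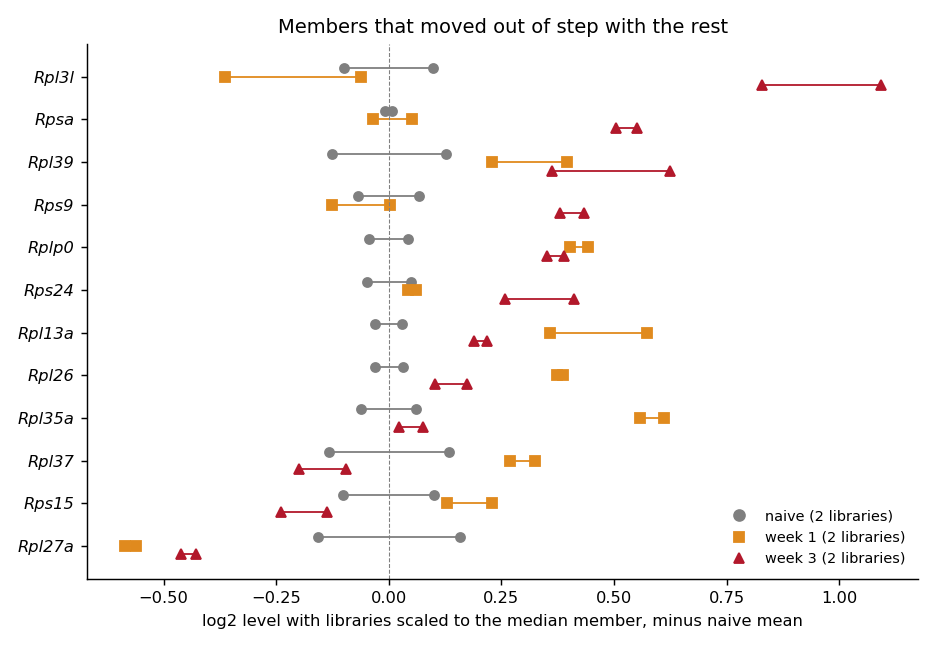
Log2 level of the 12 members that remained out of step with near-copies summed, after scaling each library to the median member, minus the naive mean (horizontal axis). Of these, only Rpl26, Rpl27a, Rpl35a, Rpl37 and Rpsa have near-copies. Each line joins the 2 libraries of a group (circles naive, squares week 1, triangles week 3). Rpl3l, Rpsa, Rps9 and Rps24 have both week 3 libraries to the right of all others.

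Among the paralog pairs, both genes rose at week 3 in 2 pairs. Rpl3 rose by 0.55 ± 0.12 and Rpl3l by 1.42. Rpl36a and Rpl36al rose by 0.75 ± 0.11 (adjusted p = 0.000348) and 0.39 ± 0.12 (adjusted p = 0.038), the second not by DESeq2 and not under most alternatives. In the other pairs 1 gene at most passed the test at a given time. Rpl22, which binds T-cell and viral RNAs, rose at week 3 (0.47 ± 0.12, adjusted p = 0.013), and Rpl22l1 gave 0.20 with an adjusted p of 0.32. Rpl7 rose by 0.46 and Rpl7l1, a nucleolar assembly factor, gave 0.26. Rpl10 rose by 0.47 with an adjusted p of 0.042, a call lost under most alternatives. Its near-copy Rpl10-ps3, with the same 642 coding bases, held more counts in each library. Rpl10-ps3 rose by 0.77 at week 3 (adjusted p = 0.00034 by edgeR). Rpl10l, a testis paralog, had 0 to 3 counts a library. Rpl39l, another testis paralog, had 1 to 13 counts and failed the filter, as did Rpl10l and Rps12. Rps27l, a target of p53, gave 14.4 to 23.3 CPM and no call, at 0.45 and 0.37. Rps4x rose at week 3 (0.55 ± 0.12), whereas Rps4l, annotated as a transcribed pseudogene and not counted as a member, gave 0.05.

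Levels of different members were compared per kb of coding sequence. In naive mice the highest were Rpl41 at 3786 ± 263, Rps14 at 3248 ± 485 and Rps9 at 2649 ± 366 CPM per kb (SD, n = 2), of which Rps14 and Rps9 lay within their spread. Rpl41 has 75 coding bases, so that reads from outside the coding part weigh heavily in its value. Rps14 was not called in any comparison (0.12 and 0.23 at the 2 weeks), and Rpl41 rose by 0.42 ± 0.12 and 0.73 ± 0.12. Among tested members, the lowest were Rpl10a at 3.43 ± 1.75, Rpl3l at 4.78 ± 0.813 and Rpl19 at 28.2 ± 7.44 CPM per kb, where Rpl10a and Rpl3l lay within their spread. Rpl19 held 6.9% of its summed counts.

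Other ribosomal genes that the symbols miss were also read. Rps3a1 and Rack1, a 40S scaffold protein, rose at week 3 by 0.43 and 0.44, and Fau gave 0.23 with an adjusted p of 0.259. At week 1 Rps3a1 gave 0.37, Rack1 -0.01 and Fau -0.03, none of them called by edgeR.

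Genes of ribosome biogenesis gave few calls. Of 36 tested ribosome biogenesis genes none passed edgeR's test at week 1 (median -0.07, with 2 higher and 4 lower at an unadjusted p under 0.05). At week 3, none rose (2 at an unadjusted p) and 3 fell (median -0.17), namely Polr1a, the catalytic subunit of RNA polymerase I, by 0.59 on the log2 scale, its factor Ubtf by 0.44 and the snoRNP protein Nop56 by 0.64. That count of 3 in 36 is near the 9.42% of all genes called lower at week 3. From week 1 to week 3, Eif6, which keeps free 60S subunits from joining 40S subunits, rose by 0.42 (adjusted p = 0.0459), and Dkc1, the pseudouridine synthase of snoRNPs, fell by 0.57 (adjusted p = 0.0273). Of 18 other mRNAs known to carry the TOP motif, none rose and 1 fell at week 1, beside 4.23% and 3.76% of all genes. From week 1 to week 3, 6 rose and 1 fell, beside 13% and 9.56% of all genes. Against naive mice at week 3, 6 rose and 1 fell, beside 12% and 9.42% of all genes. Eef1a1, the most abundant elongation factor, gave 917 and 884 CPM in naive mice, 913 and 909 at week 1 and 1456 and 1672 at week 3, a rise of 0.80 (adjusted p = 0.00028). Tpt1 rose by 0.64 and Eif4b by 0.46, and Nap1l1 fell by 0.64.

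Among 15 genes of the mTORC1 pathway and of TOP binding, 2 rose and 1 fell at week 1, and 3 rose and 1 fell at week 3. Between the weeks, 5 were higher and 1 lower at week 3. Of all genes, 4.23% rose and 3.76% fell at week 1, 12% and 9.42% at week 3, and 13% and 9.56% between the weeks. Mtor, the kinase itself, rose by 0.75 at week 1 (adjusted p = 0.0331) and 1.08 at week 3 (adjusted p = 0.00145). Rptor, its scaffold, rose by 0.89 at week 1 (adjusted p = 0.0326) and gave 0.43 at week 3 (adjusted p = 0.219). Rheb, the activator of mTORC1, rose by 0.94 at week 3, and Mlst8, a subunit of the complex, fell by 0.76 on the log2 scale. Eif4ebp1, a translational repressor that mTORC1 inactivates, gave -0.05 at week 1 and rose by 1.08 at week 3 (adjusted p = 0.00013). Its relative Eif4ebp2 fell by 0.81 at week 1 (adjusted p = 0.0155) and gave -0.06 at week 3, so that its rise of 0.75 from week 1 to week 3 returned it to about the naive level. Larp1 rose by 0.59 and Larp4 by 0.47 from week 1 to week 3, and neither was called against naive mice. These are transcript levels and say nothing of signalling.

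The promoters of the members were read from RefSeq (GRCm38.p6), where 63 of 83 matched. Shown are 60 bases around the annotated start for a few of the named members, as printed on the strand of the gene. Capitals mark the longest run of C and T that begins with C within 20 bases of the start.

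Rpl13a (chr7:45128716-45128775, minus strand): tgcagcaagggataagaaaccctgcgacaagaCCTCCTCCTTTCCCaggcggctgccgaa
Rpl38 (chr11:114668550-114668609, plus strand): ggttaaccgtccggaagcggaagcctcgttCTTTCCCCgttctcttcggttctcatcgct
Rps9 (chr7:3704011-3704070, plus strand): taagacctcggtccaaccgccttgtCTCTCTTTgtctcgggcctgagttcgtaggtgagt
Rps24 (chr14:24490648-24490707, plus strand): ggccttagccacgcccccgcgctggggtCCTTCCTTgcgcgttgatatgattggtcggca
Rpsa (chr9:120127736-120127795, plus strand): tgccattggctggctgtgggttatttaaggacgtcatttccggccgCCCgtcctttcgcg
Rpl3l (chr17:24727796-24727855, plus strand): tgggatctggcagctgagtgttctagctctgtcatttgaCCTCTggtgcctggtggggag

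A tract of at least 6 bases was found in 65.1% of the members and in 32.8% of 27025 genes, and the median run was 7 against 4 bases. In the windows shown, the marked run had 14 bases in Rpl13a, 8 in Rpl38, Rps9 and Rps24, 5 in Rpl3l and 3 in Rpsa. The Rpsa window also holds a longer run, cctttc, which begins just past the bases searched and was not counted. Rpsa is therefore placed with the shorter runs by this search limit, and its value does not show that a longer tract is absent. The same holds for Rpl26 and Rps7, scored at 3 and 5 bases, whose windows (not shown) end in longer runs past the bases searched. The grouping of members by run length given below carries this limit. Within the 300 bases from 250 before to 50 after the start, searched on both strands, the ETS motif CCGGAAG was in 39.7% of members and 9.9% of all genes. The YY1 motif AAGATGG was in 15.9% and 7.3%, the SP1 motif GGGCGG in 61.9% and 38.2%, and TATAAA in 11.1% and 15.7%. Of 39 tested members with a tract of at least 6, 23 rose at week 3 with a median of 0.49, and of 21 with a shorter run 13 rose with a median of 0.39. At week 1 these were 10 of 39 and 5 of 21, with medians of 0.27 and 0.19.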

How the data were processed

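Total RNA libraries of Ly6G+ bone marrow neutrophils from naive mice and from mice at week 1 and week 3 after LL2 injection, 2 libraries a group, were sequenced by the authors in single-end HiSeq runs, of 75 bp per the labels and up to 50 bp per the methods. The authors aligned reads with Bowtie2 to mm10 and the Ensembl transcriptome and deposited the expected counts per gene of RSEM (1.2.31 in the submitters' processing notes) as whole numbers, not scaled between libraries. The strand setting was not given in the sources used here. RSEM divides reads that fit several loci, so that a gene and its copies can exchange counts.

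Symbols came from GENCODE M21 (37570 of 38887 identifiers). Genes passing filterByExpr (12259) were fitted with edgeR 4.0.16 in R 4.3.3 by the quasi-likelihood F test on all 6 libraries, with TMM scaling (factors 0.913 to 1.07). Benjamini-Hochberg adjusted p-values over all tested genes under 0.05 defined calls. Out-of-step calls used the same fit with libraries scaled to the median ratio of the tested members. Levels are CPM on TMM-scaled library sizes. The fit was tested on simulated data. The labels title each library as a mouse with a replicate number, and nothing says further that the 2 of a group came from separate animals, so p-values measure the spread between these samples, which may be technical.

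The members, the gene lists and the markers were chosen with earlier results of these data known. Named are members out of step, those with the smallest adjusted p, paralog pairs, the highest and lowest levels, those failing the filter, and, for each further list, its few genes of smallest adjusted p. Further called genes of the ribosome biogenesis and mTORC1 lists, and the near-copies, were named after their values were seen. Alternatives were DESeq2 1.42.0, other scalings, filters and thresholds, offsets for length and GC content, named pseudogenes summed, a replicate block and each library left out. Summing near-copies was added after seeing the data. No source used here links libraries of the same number across groups, and the numbers were not used as pairs.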

Additional observations from a re-analysis of the deposited data

Results flagged for a closer look

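The changes of 16 members against naive mice differed between the 2 weeks by edgeR's test of the difference itself, and all 16 were higher at week 3. On the log2 scale, week 3 minus week 1, the smaller differences were 0.40 for Rps2, 0.45 for Rps23, 0.45 for Rps4x, 0.47 for Rps24, 0.49 for Rps10, 0.50 for Rps25, 0.51 for Rps20 and 0.51 for Rpl15. They were 0.55 for Rpl27, 0.57 for Rps7, 0.61 for Rpl12, 0.65 for Rps9, 0.69 for Rpl28, 0.70 for Rpsa, 1.32 for Rps27a and 1.37 for Rpl3l. Of these 16, 11 belong to the 40S subunit. With near-copies summed, Rps27a gave 0.38, Rpl28 -0.09, Rps7 0.06 and Rpl12 0.19, and of these 4 Rps27a alone was still called.

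Rps12 itself had no count in any library, whereas its near-copies held at least 10237 counts in each. That lies above the limit of 3 counts that a library with none allows.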

How the results depend on the processing

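Leaving out each library in turn gave 4 to 23 members higher and 1 to 3 lower at week 1, 27 to 46 higher and 0 lower at week 3, and 5 to 19 higher and 0 to 1 lower at week 3 against week 1, the fewest without naive replicate 1 at either week against naive and without week 1 replicate 1 between the weeks. Members out of step then numbered 2 to 14, 5 to 11 and 4 to 11 in the same order, and the median of the members minus that of all genes was 0.18 to 0.31, 0.38 to 0.47 and 0.18 to 0.24. The share of counts was 1.76% to 1.82% in naive mice, 2.19% to 2.22% at week 1 and 2.18% to 2.31% at week 3. With the offsets for length and GC content 6 members were higher and 5 lower at week 1 and 33 higher between the weeks, and the medians minus all genes were 0.0882, 0.29 and 0.27 in place of 0.26, 0.42 and 0.20. With library totals only, 31 were higher at week 3, and 5 were higher and 4 lower between the weeks. At an adjusted p under 0.01, 7 were higher at week 1 and 10 between the weeks, and 6, 3 and 5 were out of step. Without a filter on low counts 4 were lower at week 1, 1 at week 3 and 1 between the weeks. DESeq2 on all libraries, a minimum of 1 CPM in 4 libraries, and edgeR on the groups compared each called 1 member lower between the weeks. With near-copies summed 0 were lower at week 1, 5 were out of step at week 1, the median between the weeks was 0.16, Rps27a at week 1 turned to 0.0012 and Rpl28 between the weeks to -0.0948. With named pseudogenes summed that median was also 0.16. Shares of counts were 2.00%, 2.50% and 2.52% with named pseudogenes, 2.38%, 2.96% and 2.99% with near-copies, and 2.87%, 3.53% and 3.59% without the 10 genes of most counts. Other scalings could not be tried for members out of step, which carry their own scaling, and scaled to the summed counts of the members 14, 12 and 9 were out of step.

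The fit with a replicate block called 23, 44 and 16 members higher and 1, 0 and 0 lower. Libraries with the same number did not deviate together, with correlations of 0.01, 0.036 and 0.038 for the 3 pairs of groups. Of 47 called values of named members, 46 held under DESeq2, 36 with library totals, 37 with the offsets and 40 with near-copies summed, where 5 were no longer called and 2 turned. Without naive replicate 1, 33 held, without week 1 replicate 1 also 33, without week 1 replicate 2 35, and without the others 39 to 45. With 2 libraries a group, small changes of the less abundant members cannot be resolved, and the cause of the shifts named here was not tested.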

Other observations

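Among the near-copies of Rpl35a, Rpl35a-ps3, Rpl35a-ps4, Rpl35a-ps6 and Gm10243 each held the same counts in every library, 0 and 0 in naive mice, 119 and 99 at week 1 and 49 and 49 at week 3. Rpl35a-ps2, another near-copy, held 994 and 763 counts in naive mice, 119 and 150 at week 1 and 297 and 447 at week 3, opposite in direction to Rpl35a itself. Gm4149, a near-copy of Rpl37a, held 16 and 25, 615 and 318, and 66 and 60 counts in the same order.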
